A study of Homo sapiens with 6 samples.

Results

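The genes described here are 9 enzymes that make, recycle or remove the pyrimidine and deoxynucleotide precursors of DNA: TYMS, RRM1, RRM2, TK1, DUT, DCK, CTPS1, CAD and SAMHD1. The rule that picked them was a list of gene symbols, drawn up with earlier results of these data known, and each is 1 of the 17631 genes with a value in every library. The cells were MDA-MB-231, an established human line of triple-negative breast cancer, although the labels also name breast cancer tissue as the source. One group received vehicle and the other received PDBAG1, a synthetic peptide in which a fragment of the glycerol phosphate dehydrogenase GPD1 is joined to a cell-penetrating sequence, at 30 µM. RNA was taken after 24 h, with 3 libraries in each group. All cells came from 1 line, and the labels do not say whether the libraries of a group came from separate cultures. The p-values therefore measure the spread between these libraries, which may be technical.

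Ribonucleotide reductase, built from the large subunit RRM1 and the small subunit RRM2, turns ribonucleotides into deoxyribonucleotides. TYMS makes thymidylate from deoxyuridylate, DUT supplies that deoxyuridylate while keeping uracil out of DNA, and CAD and CTPS1 act upstream in the synthesis of uridine and cytidine nucleotides. TK1 and DCK return free deoxynucleosides to the pool, and SAMHD1 breaks deoxynucleotides down. Several of these genes are transcribed mainly in cells that are preparing for or passing through S phase, and E2F factors and CCAAT-binding factors act at many promoters of that kind.

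The values are TPM, transcript levels scaled to transcript length and to the total of each library. The value of each library is printed so that every difference can be read against the spread between libraries. All 9 enzymes had a lower mean with PDBAG1. For 8 of them (all but SAMHD1) the difference passed the test across all genes, which called 15.9% of 12582 genes lower. CTPS1 fell the most, by 30.3%, followed by TYMS, by 22.4%, and DUT, by 21.3%. None of the 9 reached the 1.5-fold change that the study required of a called gene.

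The upstream sequences of a few of the genes are shown because E2F and CCAAT-binding factors are known regulators of several of them. Each run is the 250 bases immediately before the transcription start site on the strand of the gene, taken from RefSeq on GRCh38.p14, in which all 9 genes were found. TYMS, the thymidylate synthase gene, and TK1, the cytosolic thymidine kinase gene, hold an E2F-type match close to the start site. RRM2 holds 3 CCAAT boxes, and CTPS1, with the largest fall, holds neither. For DUT a start site 768 bases downstream of the canonical one is shown, a choice made after the sequences had been seen. Capitals mark the letters of an E2F-type motif (TTCCCGC or TTGGCGC or TTCGCGC, on either strand) or of a CCAAT box (CCAAT, on either strand). The intervals are chr18:657403-657652 (plus strand) for TYMS, chr17:78187053-78187302 (minus strand) for TK1, chr2:10122489-10122738 (plus strand) for RRM2, chr15:48331947-48332196 (plus strand) for DUT and chr1:40979446-40979695 (plus strand) for CTPS1.
TYMS: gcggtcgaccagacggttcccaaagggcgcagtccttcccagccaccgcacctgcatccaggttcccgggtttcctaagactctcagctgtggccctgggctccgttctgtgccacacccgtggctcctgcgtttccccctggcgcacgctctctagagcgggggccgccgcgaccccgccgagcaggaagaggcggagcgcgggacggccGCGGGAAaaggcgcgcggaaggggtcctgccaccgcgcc
TK1: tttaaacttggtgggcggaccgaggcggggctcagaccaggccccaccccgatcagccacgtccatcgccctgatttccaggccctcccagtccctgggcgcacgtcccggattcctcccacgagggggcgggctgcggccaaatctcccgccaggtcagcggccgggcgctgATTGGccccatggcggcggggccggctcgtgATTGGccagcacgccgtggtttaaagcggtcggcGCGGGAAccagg
RRM2: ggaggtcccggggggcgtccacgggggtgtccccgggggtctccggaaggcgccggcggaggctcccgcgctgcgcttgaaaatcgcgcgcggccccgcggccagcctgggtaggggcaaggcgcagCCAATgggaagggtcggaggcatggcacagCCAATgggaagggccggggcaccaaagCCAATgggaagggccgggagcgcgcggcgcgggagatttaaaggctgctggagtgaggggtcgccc
DUT, downstream start site: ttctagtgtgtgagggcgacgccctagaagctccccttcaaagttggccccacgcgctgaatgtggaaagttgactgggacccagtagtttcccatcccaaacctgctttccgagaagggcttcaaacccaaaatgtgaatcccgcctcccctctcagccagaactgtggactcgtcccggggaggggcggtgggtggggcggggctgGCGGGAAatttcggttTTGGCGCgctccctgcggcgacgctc
CTPS1: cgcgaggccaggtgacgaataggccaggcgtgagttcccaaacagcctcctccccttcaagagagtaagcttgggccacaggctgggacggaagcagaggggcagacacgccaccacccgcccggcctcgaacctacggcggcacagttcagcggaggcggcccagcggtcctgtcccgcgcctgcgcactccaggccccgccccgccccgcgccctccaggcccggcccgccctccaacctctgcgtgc

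One window was used for each gene, at the RefSeq start site nearest to the start of the Ensembl canonical transcript, which lay 114 bases upstream of it in RRM1 and at it in the other 8. In these windows 4 of the 9 genes held an E2F-type match: TYMS, RRM1, TK1 and DCK. The same letters were found in 9.318% of all 35116 start sites and in 15.88% of the 10075 tested genes with a window. They were found in 21.7% of the 1645 genes called lower that had a window, and in 16 of the 30 listed S phase genes with a window. The match began 39 bases before the start in TYMS, 12 in TK1 and 223 in RRM1, while DCK had matches at 192 and 88. CCAAT boxes were found in 5 of the 9 (RRM1, RRM2, TK1, CAD and SAMHD1), against 35.31% of tested genes. The share was 39.88% among genes called lower, and 18 of the 30 S phase genes held the box. In RRM2 they began 123, 93 and 66 bases before the start. The downstream start site of DUT held E2F-type matches at 42 and 26, and the canonical DUT window held none. The E box CACGTG was found in DCK alone, against 8.983% of tested genes. The hypoxia-response core ACGTG, letters that the E box also contains, was found in TK1, DCK, CAD and SAMHD1, against 23.56%. The cell cycle homology letters TTTGAA were found in 1 of the 9 windows, that of RRM1, against 7.811%, and in the downstream window of DUT they were found at 214 and 129. These matches describe letters in a window, and no binding was measured.

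Ribonucleotide reductase was lower in both subunits. RRM1, the large subunit (chromosome 11, 4094707 to 4138932, 19 exons, gene positions throughout from GENCODE v44 on GRCh38), stood at 192.34, 185.25 and 182.26 TPM in the vehicle libraries and at 145.34, 151.20 and 161.78 TPM with PDBAG1. RRM2, the small subunit that is made anew for S phase (chromosome 2, 10120698 to 10211725, 10 exons), stood at 164.29, 162.46 and 164.51 TPM with vehicle and at 131.13, 133.82 and 140.84 TPM with PDBAG1. Neither gene's groups overlapped, with 20.48 TPM between the nearest libraries for RRM1 and 21.62 TPM for RRM2, and in both the third PDBAG1 library lay nearest to vehicle. RRM1 fell from 187 ± 5.18 to 153 ± 8.33 TPM (SD, n = 3), which is -0.29 on the log2 scale (SE 0.05, limma, Benjamini-Hochberg adjusted p = 0.000279). RRM2 fell from 164 ± 1.13 to 135 ± 5.01 TPM (SD, n = 3), which is -0.27 on the log2 scale (SE 0.04, limma, adjusted p = 0.000175). All log2 fold changes are differences of log2(TPM + 1), PDBAG1 minus vehicle.

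The ratio of the small to the large subunit was 0.878 ± 0.0242 with vehicle and 0.886 ± 0.0159 with PDBAG1 (SD over 3 libraries). The groups overlapped, the log2 difference was 0.013, and an exact two-sided permutation test gave p = 0.8. RRM2B, the p53-inducible small subunit that can replace RRM2 in resting cells, stood at 24.0 ± 1.24 and 26.1 ± 1.87 TPM (SD, n = 3), and its log2 fold change of 0.12 did not pass the test (limma, adjusted p = 0.196). RRM2 was 6.49, 7.11 and 6.93 times the level of RRM2B in the vehicle libraries and 5.44, 5.08 and 5.06 times with PDBAG1. These groups did not overlap, and the exact permutation test gave p = 0.1, the smallest it can give with 3 libraries against 3 (0.14 adjusted over 7 ratios).

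In thymidylate synthesis TYMS, which methylates deoxyuridylate (chromosome 18, 657653 to 673578, 7 exons), stood at 247.48, 249.73 and 250.26 TPM with vehicle and at 188.17, 194.21 and 197.62 TPM with PDBAG1. Its vehicle libraries lay within 3 TPM of each other, and 49.86 TPM separated the groups, the widest gap in TPM of the 9. TYMS fell from 249 ± 1.48 to 193 ± 4.79 TPM (SD, n = 3), which is -0.36 on the log2 scale (SE 0.04, limma, adjusted p = 6.45e-06). On the opposite strand TYMS overlaps ENOSF1 along 3261 bases and TYMSOS along 698 bases, and whether counting used strand is not stated. ENOSF1 (log2 fold change 0.07, limma adjusted p = 0.402) and TYMSOS (-0.17, limma adjusted p = 0.142) stood at 30.5 and 9.53 TPM with vehicle and did not pass the test.

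DUT, the dUTPase (chromosome 15, 48331011 to 48343373, 7 exons), stood at 94.96, 84.71 and 92.56 TPM with vehicle and at 69.52, 69.49 and 75.32 TPM with PDBAG1. All 3 PDBAG1 libraries were below the lowest vehicle library, which was the second. It fell from 90.7 ± 5.36 to 71.4 ± 3.36 TPM (SD, n = 3), which is -0.34 on the log2 scale (SE 0.05, limma, adjusted p = 0.000268). The value merges the nuclear and mitochondrial forms of the enzyme, which were not separated in the deposited gene levels. The ratio of DUT to TYMS was 0.364 ± 0.0228 with vehicle and 0.369 ± 0.0117 with PDBAG1 (SD over 3 libraries), with overlapping groups and a log2 difference of 0.022 (exact permutation p = 0.9).

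**Figure D1:**
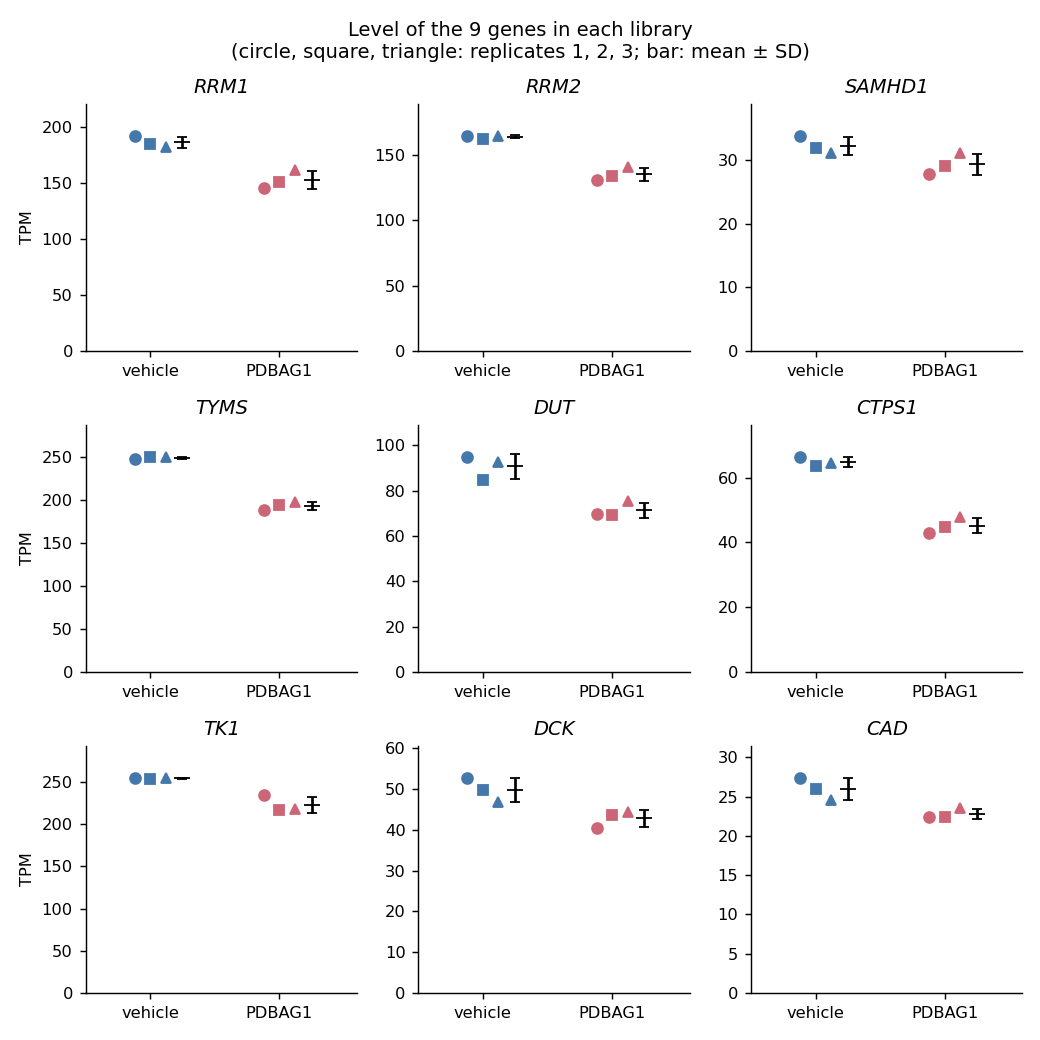
Level of each of the 9 enzymes in TPM on a linear axis from 0, with a circle, square and triangle for replicates 1, 2 and 3 of each group and a black mark with an error bar for the mean ± SD. In every gene all 3 PDBAG1 points lie below all 3 vehicle points, by 49.86 TPM in TYMS and by 0.02 TPM in SAMHD1. That order held for 20.2% of all genes tested.

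Of the salvage kinases, TK1, the S-phase thymidine kinase of the cytosol (chromosome 17, 78174091 to 78187233, 7 exons), was the highest member in both groups. It stood at 255.12, 253.62 and 254.67 TPM with vehicle and at 234.23, 216.59 and 217.89 TPM with PDBAG1. Here the first PDBAG1 library lay nearest to vehicle, unlike the other 8 members, in which the third did. TK1 fell from 254 ± 0.770 to 223 ± 9.83 TPM (SD, n = 3), which is -0.19 on the log2 scale (SE 0.04, limma, adjusted p = 0.00219).

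TK2, the mitochondrial thymidine kinase, rose from 10.4 ± 0.231 to 13.7 ± 1.19 TPM (SD, n = 3), which is 0.36 on the log2 scale (limma, adjusted p = 0.00260). The level of TK1 was therefore 23.9, 24.4 and 24.9 times that of TK2 in the vehicle libraries and 18.8, 15.7 and 14.7 times with PDBAG1. The groups did not overlap (log2 difference -0.58, exact permutation p = 0.1, the smallest possible, 0.14 adjusted over 7 ratios). The ratio of TYMS to TK1, the de novo against the salvage source of thymidylate, was 0.979 ± 0.00793 with vehicle and 0.869 ± 0.0571 with PDBAG1 (SD over 3 libraries), again without overlap (log2 difference -0.17, exact permutation p = 0.1, adjusted 0.14).

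DCK, which phosphorylates deoxycytidine and several nucleoside drugs (chromosome 4, 70992538 to 71030914, 7 exons), stood at 52.78, 49.88 and 46.85 TPM with vehicle and at 40.56, 43.54 and 44.44 TPM with PDBAG1. The groups were 2.41 TPM apart, less than the range within either group. DCK fell from 49.8 ± 2.97 to 42.8 ± 2.03 TPM (SD, n = 3), which is -0.21 on the log2 scale (SE 0.06, limma, adjusted p = 0.0111). With trends of length and GC content removed, an alternative added after seeing the data, it was -0.14 (limma, adjusted p = 0.0454). DCK shares 29912 bases with MOB1B on the same strand, a gene that rose from 12.4 ± 1.51 to 15.0 ± 1.54 TPM with overlapping groups (SD, n = 3, limma, adjusted p = 0.0469).

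In pyrimidine synthesis CTPS1, the synthase that makes CTP from UTP (chromosome 1, 40979300 to 41012565, 19 exons), stood at 66.41, 63.46 and 64.41 TPM with vehicle and at 42.98, 44.78 and 47.75 TPM with PDBAG1. The highest PDBAG1 library was 15.71 TPM below the lowest vehicle library. CTPS1 fell from 64.8 ± 1.51 to 45.2 ± 2.41 TPM (SD, n = 3), which is -0.51 on the log2 scale (95% interval -0.62 to -0.40, limma, adjusted p = 6.50e-06), or 1.43-fold. Of 12582 genes tested, it ranked 109 by size of fall. Its paralogue CTPS2 stood at 7.09 ± 0.512 and 7.52 ± 0.165 TPM (SD, n = 3) and did not pass the test (log2 fold change 0.08, limma, adjusted p = 0.494). The ratio of CTPS1 to CTPS2 was 9.17 ± 0.812 with vehicle and 6.0 ± 0.290 with PDBAG1 (SD over 3 libraries), without overlap (log2 difference -0.61, exact permutation p = 0.1, adjusted 0.14).

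CAD, the multifunctional enzyme that starts pyrimidine synthesis (chromosome 2, 27217369 to 27243943, 44 exons), stood at 27.41, 26.01 and 24.57 TPM with vehicle and at 22.43, 22.39 and 23.56 TPM with PDBAG1. The groups lay 1.01 TPM apart, less than the range of the vehicle libraries. CAD fell from 26.0 ± 1.42 to 22.8 ± 0.664 TPM (SD, n = 3), which is -0.18 on the log2 scale (95% interval -0.32 to -0.05, limma, adjusted p = 0.0342). The call was lost without the first or second vehicle library (adjusted p = 0.109 and 0.0876) and without the first or second PDBAG1 library (adjusted p = 0.0682 and 0.114, all limma). With trends of length and GC content removed, the value was -0.31 (limma, adjusted p = 0.000465).

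UMPS, which completes UMP at the end of the same route, fell from 13.3 ± 0.618 to 9.94 ± 0.137 TPM (SD, n = 3, log2 fold change -0.39, limma, adjusted p = 0.000839). The ratio of CAD to UMPS was accordingly higher with PDBAG1, at 2.29 ± 0.0356 against 1.95 ± 0.0600 (SD, n = 3), without overlap (log2 difference 0.23, exact permutation p = 0.1, adjusted 0.14).

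SAMHD1, the triphosphohydrolase that degrades deoxynucleotides (chromosome 20, 36890229 to 36951893, 16 exons), was the member that did not pass. It stood at 33.76, 31.84 and 31.05 TPM with vehicle and at 27.84, 29.01 and 31.03 TPM with PDBAG1, so that the groups were separated by 0.02 TPM. Its means were 32.2 ± 1.39 and 29.3 ± 1.61 TPM (SD, n = 3), with a log2 fold change of -0.13 (95% interval -0.26 to -0.0024, limma, unadjusted p = 0.0465, adjusted p = 0.102). It passed without the third PDBAG1 library (-0.17, limma, adjusted p = 0.0492). It also passed under median-of-ratios scaling (-0.17, adjusted p = 0.00934) and quantile normalization (-0.17, adjusted p = 0.0128).

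**Figure D2:**
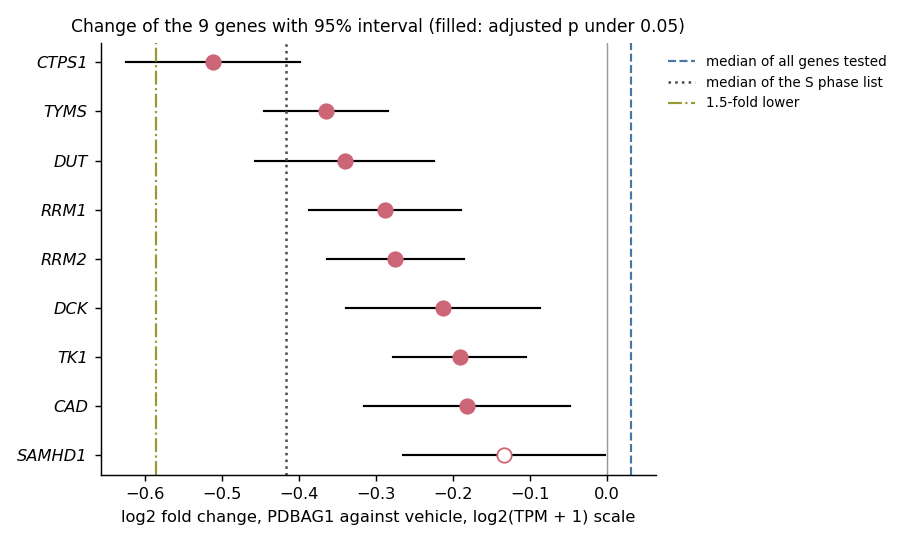
Log2 fold change of log2(TPM + 1), PDBAG1 minus vehicle, for the 9 enzymes in order, with points for the limma estimate and bars for its 95% interval, filled points for an adjusted p under 0.05, and vertical lines for 0, the median of all genes, the S phase median and a 1.5-fold fall. The estimates run from -0.51 in CTPS1 to -0.13 in SAMHD1, every interval lies below 0, and no estimate reaches the 1.5-fold line at -0.58.

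Read against all genes, 8 of the 9 members were called lower, where 15.9% of the 12582 tested genes were, and 0 were called higher, where 21.7% were (37.6% in either direction). In all 9 the PDBAG1 libraries lay below every vehicle library, which held for 20.2% of genes. The reverse order, with every PDBAG1 library above, held for 27.2%. The median log2 fold change was -0.27 over the members and 0.03 over all genes tested. At the study's 1.5-fold limit 0 members were called, where 0.477% of genes were called lower and 2.86% higher. The split of calls over all genes depended on scaling. It was 2736 higher and 2000 lower as deposited, 2455 and 2741 under median-of-ratios scaling, and 2404 and 2742 under quantile normalization. All 9 members were called lower under both of those scalings, where 21.8% of genes were.

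The order of the levels was the same in both groups: TK1, TYMS, RRM1, RRM2, DUT, CTPS1, DCK, SAMHD1 and CAD, from highest to lowest. With vehicle no neighbours in this order overlapped, from 254 TPM for TK1 down to 26.0 TPM for CAD. With PDBAG1 the libraries of CTPS1 (45.2 TPM) and DCK (42.8 TPM) overlapped, and no other neighbours did. The members together took 0.112% of all TPM with vehicle and 0.0916% with PDBAG1.

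The size of the difference varied between PDBAG1 libraries in the same way for most members. As deviations of log2(TPM + 1) from the vehicle mean, the median over the 9 was -0.32 in the first PDBAG1 library, -0.29 in the second and -0.22 in the third. The third library was the highest of the PDBAG1 libraries in 8 of the 9 members (all but TK1), against 54.6% of all tested genes. The first vehicle library was the highest of its group in 7 of 9, against 60.6% of genes. With vehicle the coefficient of variation ran from 0.302% in TK1 to 5.95% in DCK, and with PDBAG1 from 2.48% in TYMS to 5.51% in SAMHD1.

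**Figure D3:**
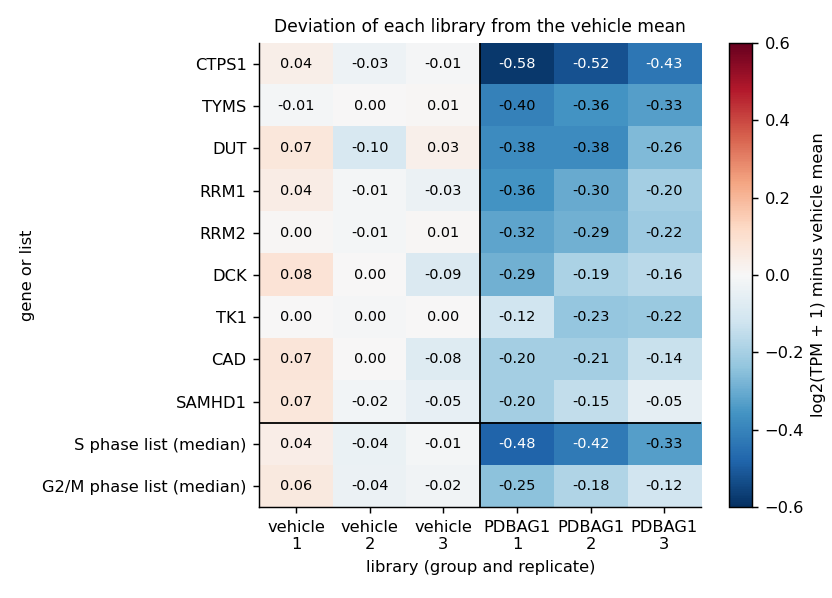
Deviation of log2(TPM + 1) from the vehicle mean in each of the 6 libraries (columns) for the 9 enzymes and, as medians, for the S phase and G2/M phase gene lists (bottom lines of cells). CTPS1 runs from -0.58 in the first PDBAG1 library to -0.43 in the third, and the S phase median from -0.48 to -0.33.

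Genes of the cell cycle were lower as well. Of 40 S phase genes that are not members, 39 were called lower and 0 higher, against 15.9% and 21.7% of all genes tested. Their median log2 fold change was -0.42. CASP8AP2 did not pass. Their summed level was 2934 to 3050 TPM in the vehicle libraries and 2198 to 2366 TPM with PDBAG1. UNG, which removes uracil from DNA, had the largest fall of the list (85.9 ± 3.71 to 47.9 ± 4.30 TPM, SD, n = 3, log2 fold change -0.83), followed by GINS2, a subunit of the replicative helicase complex (24.7 ± 1.59 to 14 ± 1.08 TPM, SD, n = 3, -0.77). The part of this shift in the members' falls was not tested, and in RNA from whole cultures fewer cells in S phase and less RNA per cell cannot be told apart.

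Of 54 G2/M phase genes, 36 were called lower and 0 higher, against 15.9% and 21.7% of all genes tested. The number called lower ran from 24 (eBayes without trend) to 40 (median-of-ratios scaling) over the alternatives. Without the first PDBAG1 library 1 was called higher. The median log2 fold change was -0.18, and the summed level was 8579 to 8925 TPM with vehicle and 7248 to 7772 TPM with PDBAG1. CDC20, an activator of the anaphase-promoting complex, fell from 326 ± 9.35 to 235 ± 1.07 TPM (SD, n = 3, log2 fold change -0.47). CDCA8, or borealin, fell by 0.41 on the log2 scale. The abundant TUBB4B, a tubulin, and UBE2C, a ubiquitin-conjugating enzyme of mitosis, fell from 819 to 649 TPM and from 620 to 547 TPM (log2 fold changes -0.34 and -0.18). All of these passed limma at an adjusted p under 0.05. As with S phase genes, the medians by library were -0.25, -0.18 and -0.12 in PDBAG1 libraries 1, 2 and 3.

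The other enzymes of deoxynucleotide supply moved in both directions. Of 12 in the files, 11 were tested: 5 were called lower, 1 higher and 5 neither, against 15.9% lower and 21.7% higher of all genes tested. Their median log2 fold change was -0.06, which became 0.03 once trends with transcript length and GC content were removed. DCTPP1, which hydrolyses dCTP and modified deoxycytidine triphosphates, fell from 85.8 ± 5.20 to 59.9 ± 4.94 TPM (SD, n = 3, log2 fold change -0.51, limma, adjusted p = 3.22e-05). DTYMK, which phosphorylates the product of TYMS and TK1, fell from 205 ± 3.68 to 167 ± 4.57 TPM (SD, n = 3, -0.29, limma, adjusted p = 6.63e-05). The remaining lower calls were the nucleoside diphosphate kinases NME1, NME2 and NME4, of which NME1 and NME4 were named after their values were seen. NME2 had the highest vehicle level of the listed non-members and fell from 2090 ± 64.1 to 1882 ± 47.4 TPM (SD, n = 3, -0.15, limma, adjusted p = 0.00357). NME1 fell by 0.26 and NME4 by 0.13 on the log2 scale, and NME4 was called in only 5 of 14 alternatives. NME1 and NME2 are near-identical neighbours, so the division of reads between them is uncertain. TK2 was the gene called higher.

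Of 4 other genes of pyrimidine synthesis and its glutamine supply, 1 was called lower (UMPS), 1 higher (GLUL) and 2 neither (DHODH and CTPS2). Among all genes tested 15.9% were called lower and 21.7% higher. GLUL, which makes the glutamine that CAD and CTPS1 consume, rose from 25.8 ± 1.37 to 32.1 ± 1.36 TPM (SD, n = 3, log2 fold change 0.30, limma, adjusted p = 0.00155). DHODH, the mitochondrial step between CAD and UMPS, stood at 8.24 ± 0.803 and 7.0 ± 0.496 TPM (SD, n = 3) and did not pass (-0.21, limma, adjusted p = 0.0924). With CAD and CTPS1 included, the de novo route held 3 lower calls, while DHODH and CTPS2 were not called. The call of CAD held in only 8 of 14 alternatives.

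Pyrimidine salvage and breakdown gave calls of both kinds. Of 11 genes in the files 8 were tested, and 2 were called lower, 4 higher and 2 neither, against 15.9% lower and 21.7% higher of all genes tested. The uridine-cytidine kinases UCK2 (35.9 ± 1.5 to 28.5 ± 0.960 TPM, SD, n = 3, log2 fold change -0.33) and UCK1 (24.6 ± 1.42 to 20.3 ± 0.997 TPM, SD, n = 3, -0.26) fell. Uridine phosphorylase UPP1 rose from 108 ± 2.11 to 137 ± 5.29 TPM (SD, n = 3, 0.34). UPRT, named for its resemblance to uracil phosphoribosyltransferases, rose from 6.22 ± 0.538 to 9.69 ± 0.380 TPM (SD, n = 3, 0.57). The other 2, named after their values were seen, were thymidine phosphorylase TYMP (7.34 to 10.8 TPM, 0.50) and cytidine deaminase CDA (134 to 149 TPM, 0.15). CDA was called in 11 of 14 alternative settings.

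The nucleotidases, which remove phosphate from nucleotides or cleave unwanted triphosphates, gave 4 lower calls, 1 higher and 4 neither of 9 tested. Among all genes tested 15.9% were called lower and 21.7% higher. NT5C, a cytosolic deoxyribonucleotidase (99.2 ± 3.65 to 83.3 ± 6.49 TPM, SD, n = 3, log2 fold change -0.25), fell. ITPA, the inosine triphosphatase, rose from 93.8 ± 3.62 to 106 ± 6.55 TPM (SD, n = 3, 0.18) and was called in 9 of 14 alternatives. Of the nucleoside transporters 4 of 7 were tested, and 1 was called higher, against 21.7% of all genes tested. SLC29A2, the equilibrative transporter ENT2, rose from 18.4 ± 0.693 to 22.2 ± 0.214 TPM (SD, n = 3, 0.26, limma, adjusted p = 0.00501), and the other 3 did not pass.

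**Figure D4:**
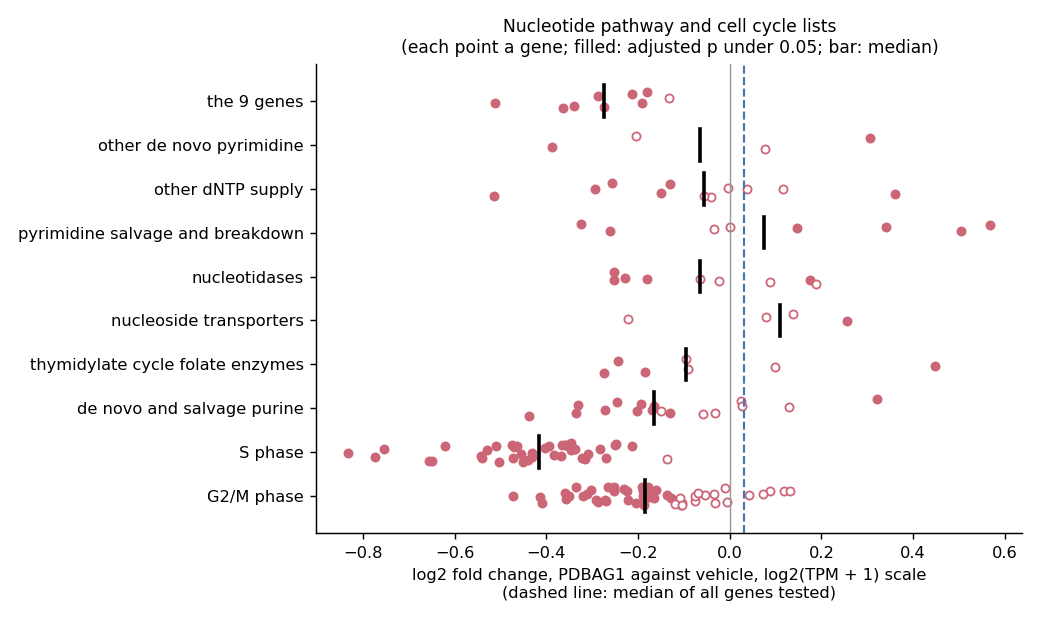
Log2 fold change of log2(TPM + 1), PDBAG1 minus vehicle, of every tested gene of the 9 enzymes and the comparison lists, with 1 point for each gene, filled where the limma adjusted p is under 0.05, a short black bar for each list's median and a dashed line for the median of all genes (0.03). The S phase list sits lowest with a median of -0.42, the 9 enzymes have -0.27, and pyrimidine salvage (0.07) and the transporters (0.11) lie above 0.

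Purine synthesis and salvage, the other arm of the precursor supply, had 10 lower calls, 1 higher and 6 neither of 17 tested. The shares over all genes tested were 15.9% lower and 21.7% higher. The median log2 fold change of the list was -0.17. IMPDH2, which commits IMP to guanine nucleotides, fell from 568 ± 3.72 to 479 ± 1.58 TPM (SD, n = 3, -0.25, limma, adjusted p = 5.83e-05). ADSL, adenylosuccinate lyase, fell from 183 ± 6.65 to 146 ± 6.03 TPM (SD, n = 3, -0.33, limma, adjusted p = 6.95e-05). Adenosine deaminase ADA rose from 7.48 ± 0.680 to 9.60 ± 0.967 TPM (SD, n = 3, 0.32, limma, adjusted p = 0.0148) and was called in 11 of 14 alternatives.

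Of the folate enzymes around thymidylate synthesis, 3 of 7 were called lower, 1 higher and 3 neither, against 15.9% lower and 21.7% higher of all genes tested. MTHFD1, which interconverts folate one-carbon units in the cytosol, fell from 168 ± 6.01 to 142 ± 7.0 TPM (SD, n = 3, log2 fold change -0.24, limma, adjusted p = 0.00105). Mitochondrial MTHFD2, named after its value was seen, fell by 0.19 on the log2 scale.

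**Figure D5:**
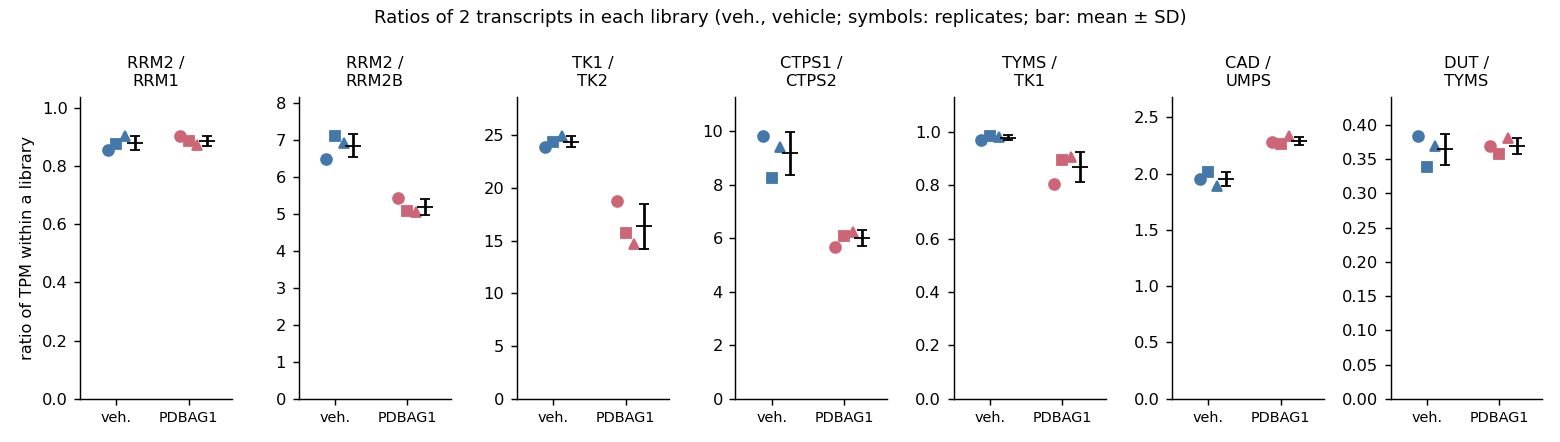
Within-library ratios of TPM for the 7 pairs of genes, with 1 symbol for each of the 3 vehicle and 3 PDBAG1 libraries, a black mark with an error bar for the mean ± SD, and axes from 0. The ratios of RRM2 to RRM1 and of DUT to TYMS overlap between groups, and the other 5 do not.

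The 6 libraries held genes listed as markers of a mesenchymal breast cancer line like MDA-MB-231, with VIM at 4270 TPM and CD44 at 321 TPM with vehicle. Such markers do not by themselves identify the line. The 8 marker genes on this list summed to 6919 to 7136 TPM with vehicle and to 8782 to 8842 TPM with PDBAG1. By the adjusted p of limma 4 of the 8 were called higher (VIM, CD44, KRT8 and MSN), 3 lower (KRT18, AXL and CAV1) and 1 neither. Among all genes tested 21.7% were called higher and 15.9% lower. The log2 fold changes of the 8 ran from -0.30 to 0.59, and VIM makes up most of the sum. Of the hormone receptors PGR was at or under 0.06 TPM, and ESR1 was at 1.96 to 3.38 TPM. Markers of other cell types were low in both groups, given here as sums with vehicle and then with PDBAG1. For 6 immune genes they were 11.1 to 12.5 and 11.6 to 13.1 TPM. Of the 3 immune genes tested, 1 was called higher (log2 fold change 0.67) and 2 were not called. For 4 endothelial genes they were 4.74 to 5.35 and 9.10 to 10.5 TPM (PECAM1 rose, and VWF was at or under 0.09 TPM). The 1 endothelial gene tested was called higher by 0.96 on the log2 scale. For 4 adipocyte genes they were 0.81 to 1.16 and 1.13 to 1.62 TPM, and for 4 fibroblast genes 3.99 to 4.15 and 4.39 to 4.98 TPM. Each library had 12392 to 12611 genes at a TPM of 1 or more, and the SD of log2 differences between libraries was 0.142 to 0.175 within a group and 0.278 to 0.296 between groups.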

How the data were processed

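RNA of MDA-MB-231 cells was measured in 3 vehicle and 3 PDBAG1 libraries, grouped by the labels. By the study's methods, mRNA libraries were sequenced on the BGISEQ-500 platform, aligned with HISAT2 to GRCh38.p13 and expressed as FPKM, whereas the submitters' processing notes name HISAT2 2.0.4, Bowtie2 2.2.5, RSEM 1.2.12 and GRCh38.p12. The values the authors deposited are TPM with 2 decimals, with equal totals per library, for 17631 genes that the files all type as mRNA. The step to TPM and the use of strand are not given in the sources used here. TPM keeps no depth, so depth and counting error are unknown, and precision rests on 3 libraries per group.

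Genes reaching 1 TPM in no fewer than 3 libraries (12582, including all 9 members) were tested on log2(TPM + 1) in R 4.3.3 with limma 3.58.1 (lmFit, eBayes with trend), two-sided, and called where the p adjusted by Benjamini-Hochberg over all genes tested was under 0.05. Adding 1 understates the change of genes at low levels. Gene lists are described by counts and medians and were not tested as sets. Ratios were compared by exact two-sided permutation of 3 against 3, which cannot go below 0.1. The test was also run on simulated data with independent noise for each gene. That simulation lacks the library effects that genes share, so it does not vouch for the calls made here. Gene positions and overlaps come from GENCODE v44, which held 17212 of the 17631 genes, and upstream sequences from RefSeq on GRCh38.p14. Only sequences and positions, not values, were taken from these builds. The members and lists were chosen with earlier results of these data known. The S phase and G2/M lists are those of the Seurat package without the members. Named genes are all members, the 2 genes of smallest adjusted p in each direction in a pathway list, the 2 largest falls of each cell cycle list, the partners of the ratios, the 3 listed non-members with the highest vehicle level, and the 3 genes most like each member. Some genes that this rule selects are not reported here. The markers of the line and of other cell types were described by their levels. Alternatives were no filter, a TPM of 1 in every library, eBayes without trend, a pseudocount of 0.1, median-of-ratios and quantile scaling, a replicate block, fold limits of 1.5 and 2, leaving out each library and, added after seeing the data, removal of length and GC trends.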

Additional observations from a re-analysis of the deposited data

How the results depend on the processing

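All 9 members kept a negative log2 fold change in all 14 alternatives, and 7 of them (TYMS, RRM1, RRM2, TK1, DUT, DCK and CTPS1) stayed called lower by the adjusted p in each. Over all genes the number called lower in these 14 ran from 1500 (without the second PDBAG1 library) to 2742 (quantile normalization). Without 1 library the number called lower was 7 to 9 and the number called higher 0 to 0, and over all genes 1500 to 2076 were lower, 2024 to 2895 higher and 406 to 480 at 1.5-fold. CAD (range -0.31 to -0.14) was called in 8 of 14 alternatives and SAMHD1 (-0.17 to -0.099) in 3. Requiring a 1.5-fold change left 0 members, 60 lower and 360 higher genes, and a 2-fold limit left 80 genes where the 1.5-fold limit left 420, fewer because the limit is stricter. The lowest value of CAD and the highest of DCK (range -0.26 to -0.14) came with length and GC trends removed. Without the filter the adjusted p of CAD was 0.0512.

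Under median-of-ratios scaling the median log2 fold change was -0.099 for other deoxynucleotide supply, 0.032 for pyrimidine salvage, -0.21 for purine enzymes and -0.14 for folate enzymes. Under quantile normalization it was -0.16 for the other pyrimidine synthesis genes, a list that includes GLUL. The median of all genes, 0.03 as deposited, was -0.0074 and -0.020 under these scalings. With length and GC trends removed, the median was 0.032 for other deoxynucleotide supply, a change of sign, and 0.046 for the transporters. Leaving out 1 library gave -0.091 to -0.038 for other deoxynucleotide supply, -0.0063 to 0.034 for the log2 difference of RRM2 to RRM1 and -0.029 to 0.060 for DUT to TYMS. The last 2 changed sign, RRM2 to RRM1 at -0.0063 without the first vehicle library, and DUT to TYMS at -0.029 without the second vehicle library and at -0.00075 without the third PDBAG1 library. The causes of these shifts were not tested beyond the alternatives themselves.

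The deviations of same-numbered libraries from their group means had correlations of -0.21, 0.012 and -0.079 for numbers 1, 2 and 3. With 3 libraries per group these values cannot show whether same-numbered libraries were handled together, and the labels do not say. With the replicate number as a block, 7 members were called lower, CAD being lost (limma, adjusted p = 0.0919), and no other member call changed. Over all genes 1638 were called lower and 2313 higher in that setting. The depth behind a TPM is unknown, which limits statements on low genes such as CTPS2 and TK2.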

Other observations

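For each member, the 3 tested genes with the highest Pearson correlation of log2(TPM + 1) were found over the 6 libraries, which share the split between vehicle and PDBAG1. For CTPS1 they were BDNF (0.9995), NUP88 and SRSF7 (0.9982), and for TYMS they were FAM185A and DNAJA3 (0.9993 each) and BYSL (0.999). RRM1 was followed by VKORC1L1 (0.9992), ARHGEF26 (0.9989) and RWDD1 (0.9987), and RRM2 by GNL3 (0.9991), NIP7 and GPN3 (0.9987). For SAMHD1 they were TTF2 (0.9978), FANCI (0.9976) and FAM111A (0.9956), and for DUT they were MTRR (0.9976), RUVBL1 (0.9975) and MED22 (0.997). TK1 was most like PAAF1, MON1A (0.9966) and CIAPIN1 (0.9956), DCK like RRAS2 (0.9975), CBX2 (0.995) and TMEM68 (0.9947), and CAD like WWC1 (0.9992), XPA (0.9963) and HPSE (0.993). These are descriptions over 6 libraries in 2 groups, from among 12582 genes. The number of genes with a correlation over 0.95 ran from 229 for TK1 to 812 for CTPS1, so the genes named do not stand apart.

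Among the 36 pairs of members the correlation over the 6 libraries ran from 0.587 to 0.997 with a median of 0.907. After each group's mean was subtracted it ran from -0.893 to 0.981 with a median of 0.656, from 3 libraries per group that share their library effects.

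The size of the difference also moved with transcript length. The median log2 fold change was -0.032, 0.035 and 0.080 in the short, middle and long of 3 equal classes of genes, with median transcript lengths of 1613, 3281 and 6215 bases. Of the members, TK1 and TYMS have the shortest transcripts (1431 and 1613 bases) and CAD and SAMHD1 the longest (7286 and 4649 bases). The part of this trend in the members' values was not tested. With length and GC trends removed, 8 members were called lower, where 15.3% of 12433 genes were, and the median of the members was -0.23. The same removal moved CAD from -0.18 to -0.31 and DCK from -0.21 to -0.14.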
